A study of Mus musculus with 21 samples.

Results

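Oxidative phosphorylation subunit genes are the nuclear genes that encode the protein subunits of the 5 enzyme complexes of the inner mitochondrial membrane. They were chosen by symbol alone, as every gene in the count files whose symbol begins with Nduf and a subunit letter and number, is Sdha to Sdhd, or begins with Uqcr, with Cox and a number from 4 to 8, or with Atp5. The rule found 84 of 24391 symbols, 37 for complex I, 4 for complex II, 8 for complex III, 18 for complex IV and 17 for complex V. Atp5s and Atp5sl match the rule but name no subunit, so they were counted as members and left out of the values of complex V. Newborn mice (postnatal day 0, strain C57BL/6 in the labels and C57BL/6J in the study's methods) gave 3 tissues each, brain, liver and skin, and RNA was sequenced with 1 library per mouse and tissue. KI mice (n = 2) were heterozygous for a knock-in allele of Jak1, a cytokine receptor kinase, which carries the missense change H595D and the silent changes I596I and Y597Y and was made by CRISPR/Cas9 editing. WT mice (n = 5) carried no such allele. The KI mice were offspring of a mosaic founder male. Sexes and litters are not given in the labels. Gene counts hold no bases, and the allele itself was not checked here.

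Complex I (NADH dehydrogenase) and complex II (succinate dehydrogenase) pass electrons from NADH and succinate to ubiquinone, complex III (ubiquinol cytochrome c reductase) passes them to cytochrome c, and complex IV (cytochrome c oxidase) passes them to oxygen. The proton gradient that complexes I, III and IV build drives complex V, the ATP synthase. Each complex has a few core subunits that carry the catalytic or electron-carrying centres and, apart from complex II, many small accessory subunits, which are encoded by short transcripts. Several subunits of complex IV come in alternative forms from paralogous genes, some of them used in skeletal muscle, heart and brown fat. Oxidative metabolism of the brain rises after birth, and the newborn liver is rich in mitochondria while it still holds blood-forming cells. Mitochondrially encoded subunits were not analysed here.

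The 21 libraries held 26549326 to 38388133 counts on genes. The subunit genes took 1.25% to 1.87% of the counts in WT brains, 0.829% to 0.902% in WT livers and 1.12% to 1.72% in WT skins. Hepatocyte markers summed to 179846 to 207650 CPM (counts scaled to the library total) in the livers and neuronal markers to 8805 to 9881 CPM in the brains, with none at 0. Keratinocyte markers summed to 953 to 17234 CPM and skeletal muscle markers to 7320 to 27537 CPM in the skins. In bulk tissue, fewer cells of a type and less RNA per cell cannot be told apart. The study's methods give lower RNA integrity numbers for the skin samples than for the others, which they name as blood and liver. The part of RNA quality in differences between the skin and the other tissues was not tested. Of the 84 genes, 81 passed the filter on low counts in brains, 80 in livers and 81 in skins. Ndufs5 had 0 counts in all 21 libraries, Cox8c at most 1 count in any library, and Cox7b2, a testis form, 0 counts in every liver and skin.

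Reads that matched more than 1 place in the genome had been set aside before counting, which bears on subunit genes that have copies elsewhere. Of all stretches of 64 bases in its longest coding transcript, Atp5g2 had 100% also present elsewhere in the mouse genome, Atp5l 88.6%, Cox5b 56.1%, Uqcrb 51.3% and Ndufs5 46.4%. Atp5g1, Atp5g2 and Atp5g3 encode the same mature c subunit of the proton-turning ring. In WT brains Atp5g3 took 99.5% ± 0.0923 (SD, n = 5) of their summed level per transcript length, and Atp5g2 had 2 to 11 counts in a library. The share depends on the lengths used, 4715 bases for Atp5g1, with a coding part of 411, and 723 bases for Atp5g3. Ndufb4, with 40.4% of its stretches elsewhere, had only 18 to 58 counts in WT brains. Levels of these genes are therefore uncertain, and how much of each low level came from such reads was not tested.

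Promoters of 61 subunit genes had 1 entry each in the RefSeq table of the build GRCm38.p6, which gives 250 bases before and 50 bases after a transcription start. They were searched on both strands for motifs of factors known to control mitochondrial genes. The motif of nuclear respiratory factor NRF1 (GCGCA, any base, then GCGC) was in 15 of 61 subunit promoters, or 24.6%, against 4.75% of 22862 promoters. The ETS motif bound by GABPA (CCGGAAG) was in 24.6% against 9.12%, the YY1 motif (AAGATGGCG) in 9.84% against 1.55%, and the motif of estrogen-related receptors (TNAAGGTCA) in 4.92% against 1.25%. At least 1 of these motifs was in 31 of the 61, or 50.8%, against 15.2% of all promoters. The subunit promoters were richer in G and C, with a median of 57.0% against 52.3%, and the shares were not adjusted for this. The ETS motif ends in the letters with which the YY1 motif begins, so that these matches can overlap.

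The upstream 250 bases are shown for a gene of complex IV and a gene of complex II with matches to both the NRF1 and the ETS motif, with matches in capitals, to show how the motifs lie towards the start, and shorter stretches of 30 bases for genes of complexes I, III and V.
Cox6a1 (chr5:115348959-115349208, minus strand): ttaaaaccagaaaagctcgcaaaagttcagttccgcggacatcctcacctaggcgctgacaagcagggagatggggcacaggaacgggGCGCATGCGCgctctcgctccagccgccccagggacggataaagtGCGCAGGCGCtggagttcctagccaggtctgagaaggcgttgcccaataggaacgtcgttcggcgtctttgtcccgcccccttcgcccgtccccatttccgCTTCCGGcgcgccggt
Sdhd (chr9:50603850-50604099, minus strand): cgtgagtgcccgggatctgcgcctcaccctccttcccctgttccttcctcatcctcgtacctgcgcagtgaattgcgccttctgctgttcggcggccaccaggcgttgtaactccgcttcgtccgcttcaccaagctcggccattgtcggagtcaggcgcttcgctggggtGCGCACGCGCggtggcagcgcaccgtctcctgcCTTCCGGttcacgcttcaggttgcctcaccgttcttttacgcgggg
Ndufa11 (chr17:56717692-56717721, plus strand): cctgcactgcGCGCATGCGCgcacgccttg
Uqcrh (chr4:116075071-116075100, minus strand): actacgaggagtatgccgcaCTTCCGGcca
Atp5k (chr5:108434430-108434459, minus strand): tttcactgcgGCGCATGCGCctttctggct
In Cox6a1 the NRF1 matches began 162 and 117 bases and the ETS match 16 bases before the start. In Sdhd the NRF1 match began 79 bases and the ETS match 46 bases before the start. The match began 60 bases before the start in Ndufa11 and 50 bases in Atp5k for NRF1, and 10 bases in Uqcrh for ETS. A match is a run of letters only, and no binding was measured.

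In WT mice most subunit genes differed by less than 2-fold between tissues, and the differences of 2-fold or more lay mostly in alternative forms of complex IV and in complex I. Levels are given as RPKM, a CPM divided by the length of the longest coding transcript in kilobases. Here the CPM were scaled over the WT libraries of all tissues together by TMM, a scaling between libraries. CPM of subunit genes given below for KI and WT were scaled so within each tissue, and do not convert into these RPKM. Comparisons of levels between tissues depend on the scaling chosen. A comparison between genes depends on the transcript chosen, which in Atp5g1 has 4715 bases for a coding part of 411, and in Ndufb2 4371 for 318. Summed over its genes, complex I reached 4658 ± 1091 RPKM in brains, 3451 ± 184 in livers and 3519 ± 570 in skins (mean ± SD, n = 5). Complex II summed to 441 ± 59.2, 611 ± 34.8 and 493 ± 158 RPKM in the same order, highest in the liver. Complex III summed to 1471 ± 257, 1545 ± 64.7 and 1367 ± 329 RPKM, and complex V to 3390 ± 655, 3399 ± 193 and 3215 ± 497 RPKM. Complex IV summed to 3267 ± 789, 2489 ± 118 and 2632 ± 558 RPKM. The SD was larger in the brain than in the liver in all 5 complexes, with WT 5 the highest brain in each, and the ranges of brain and skin overlapped in all 5.

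The member with the highest mean level in complex IV was Cox4i1, the main form of a large regulatory subunit, at 779 ± 220.5 RPKM in brains, 654 ± 40.8 in livers and 719.7 ± 149 in skins. In complex V it was Atp5e, the epsilon subunit, in the brain (624 ± 304, with WT 5 at 1156 and the others at 429 to 590.2). That place rested on WT 5, since Atp5g3 lay above Atp5e in each of the other 4 WT brains and had the higher median (571 against 494 RPKM). In complex V it was Atp5b, the catalytic beta subunit, in the liver (954 ± 83.2) and skin (729 ± 200.1). In complex I it was Ndufa4 in brains, Ndufa6 in livers and Ndufb9 in skins, all accessory subunits by name. Ndufa4 is now known as a subunit of complex IV and was kept in complex I by its symbol.

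Calls between WT tissues needed both a difference of at least 2-fold and an adjusted p under 0.1 in edgeR's quasi-likelihood test over all genes. Of 81 subunit genes tested, 9 were higher and 3 lower in brain than in liver, while 32.3% and 29.0% of all 17071 genes were called in those directions. The corresponding counts were 5 and 5 for brain against skin (25.5% and 28.4% of all genes) and 1 and 4 for liver against skin (18.5% and 27.1%). By adjusted p alone, 52, 53 and 25 subunit genes passed in the 3 contrasts, with 83.4%, 79.4% and 72.3% of all genes. The median log2 difference of the subunit genes was 0.33 for brain against liver, 0.35 for brain against skin and -0.04 for liver against skin. Without WT 5 the medians of the brain contrasts were 0.15 and 0.11, and without WT 1 and without WT 3 the last was 0.03. Without WT 5 the brain and liver contrast gave 6 and 4 calls (32.0% and 28.9% of all genes), and without WT 3 the brain and skin contrast gave 9 and 5 (25.3% and 28.2%).

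Ndufa4l2, the paralog of Ndufa4 known as a target of hypoxia-inducible factor, had the largest tissue differences among the called complex I genes. Its level was 6.07 to 16.1 RPKM in WT brains, 69.1 to 85.7 in WT livers and 95.03 to 161 in WT skins, with no overlap between tissues. The log2 difference was -3.01 (standard error 0.238, adjusted p = 6.69e-09) for brain against liver and -3.77 (0.246, adjusted p = 1.15e-09) for brain against skin. It took 2.11% ± 0.701 of the summed level of Ndufa4 and Ndufa4l2 in brains, 24.6% ± 1.82 in livers and 43.9% ± 10.1 in skins (SD, n = 5).

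Complex II showed a split among its own genes. Sdhd, which encodes the small membrane anchor that carries the ubiquinone site with Sdhc, was at 118 to 147 RPKM in WT brains, 263 to 300.5 in WT livers and 113 to 221 in WT skins. The livers lay above every brain and skin, with a log2 difference of -1.12 (standard error 0.156, adjusted p = 5.99e-06) for brain against liver. Sdha, the flavoprotein, was also lower in brain than in liver (79.7 ± 3.82 against 132 ± 6.25 RPKM), by -0.73 (0.196, adjusted p = 0.00284). The CPM of Sdha scaled within each tissue, given below, overlapped between WT brains and WT livers, so this difference depends on the scaling between tissues. Sdhb, the iron-sulfur subunit, lay the other way (179.7 ± 40.0 against 138 ± 10.7 RPKM), by 0.38 (0.179, adjusted p = 0.0618).

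Other complex I accessory genes were higher in the brain. Ndufa5 was at 164 ± 34.3 RPKM in brains, 56.3 ± 4.69 in livers and 72.8 ± 7.12 in skins, a log2 difference of 1.54 (standard error 0.134, adjusted p = 2.09e-08) for brain against liver and 1.18 (0.132, adjusted p = 6.58e-07) for brain against skin. Ndufs4, an accessory subunit mutated in Leigh syndrome, was higher in brain than in liver by 1.15 (0.125, adjusted p = 3.23e-07). Ndufb2, Ndufb3, Ndufa11 and Ndufc2 were also called higher in brain than in liver.

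The muscle and brown fat forms of complex IV were higher in the skin than in the brain and the liver. Cox6a2, a heart and muscle form, was at 44.5 to 147 RPKM in WT skins and at 0.356 to 1.34 in WT brains and livers. Cox7a1, also a muscle and brown fat form, was at 21.3 to 153 RPKM in WT skins, with WT 3 the highest, and at 2.47 to 11.7 elsewhere. Cox8b had 618 to 2693 counts in WT skins, 0 to 8 in WT brains and 0 in all WT livers. No fold is given for Cox8b, since it was listed at 0 or near 0 outside the skin, although the test also called it higher in brain than in liver on those few counts. The summed skeletal muscle markers were 7320 to 27537 CPM in WT skins against 9.45 to 12.0 in WT livers, and the brown adipocyte markers 789 to 4830 against 112 to 143 CPM. Their part in the result was not tested. WT 3 had the highest brown adipocyte sum.

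**Figure D1:**
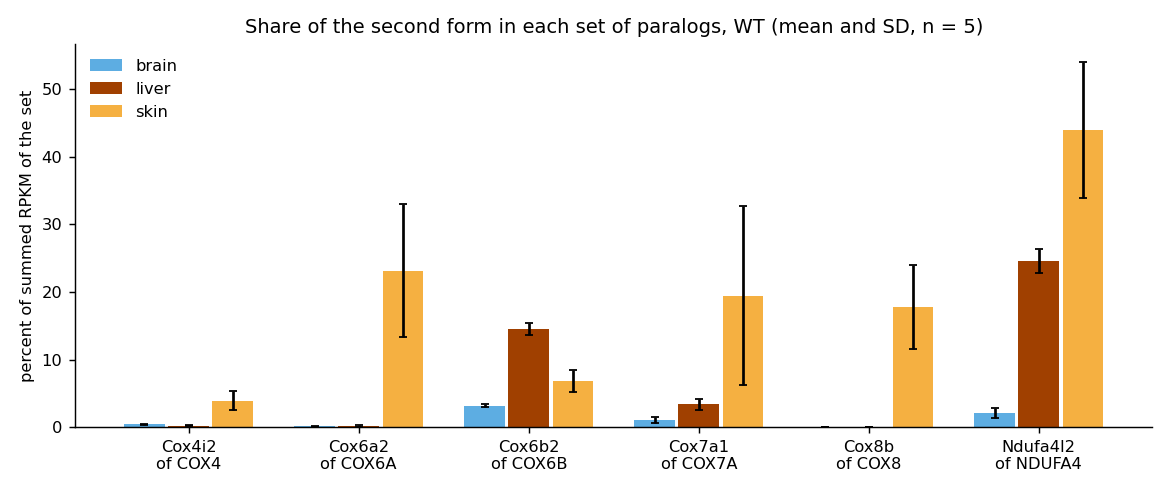
Percent of the summed RPKM of a set of paralogs taken by the second form, in WT mice (bars at the mean, whiskers 1 SD, n = 5 per tissue). The share of Cox6a2 reaches 23.2% in the skin and 0.193% in the liver, that of Cox6b2 is highest in the liver at 14.5%, and that of Ndufa4l2 is 2.11% in the brain and 43.9% in the skin.

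Cox4i2, a form known from lung and hypoxic tissue, was higher in the skin than in both other tissues, with log2 differences of -2.94 (standard error 0.348, adjusted p = 1.24e-06) for brain against skin and -4.05 (0.373, adjusted p = 9.07e-08) for liver against skin. It still took only 3.94% ± 1.42 of the COX4 pair in the skin. Cox6b2, known as a testis form, was highest in the liver at 37.9 ± 3.37 RPKM against 12.9 ± 4.42 in the brain and 17.8 ± 3.22 in the skin, and both differences from the liver were called (adjusted p = 3.50e-06 and 0.000194).

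In the brain, every tested subunit gene had a log2 fold change below 0 in KI against WT, and the median was -0.81, or 56.9% of the WT level. Complex III had the lowest median (-1.004, 8 genes), followed by complex I (-0.92, 36 genes), complex V (-0.79, 15 genes), complex IV (-0.79, 16 genes) and complex II (-0.49, 4 genes). Over all 16322 genes tested the median was -0.02, and 52.8% lay below 0. Both KI libraries lay below all 5 WT libraries in 68 of 81 subunit genes, against 15.8% of all genes.

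No brain gene passed the test across genes. In edgeR's quasi-likelihood test with Benjamini-Hochberg adjustment, 0 of 81 subunit genes and 0 of 16322 genes (0%) were called at an adjusted p under 0.1. At an unadjusted p under 0.05, 53 subunit genes were lower and 0 higher, against 7.81% and 2.80% of all genes. The DESeq2 Wald test called 41 lower (3.21% of all genes), and edgeR in a fit of all 21 libraries 39 (2.44%). On simulated brain counts, drawn without a trend with transcript length, DESeq2 made 80 false calls and edgeR 10. With a block for the replicate number edgeR called 61 (8.47%), and with that block and an offset for transcript length 29 (2.11%). The block sets only KI 1 against WT 1 and KI 2 against WT 2, since WT 3 to WT 5 share no number with a KI mouse. WT 5 decided the edgeR count: without it, 56 of 79 subunit genes were called lower, with 6.32% of all genes, and the median was -0.61. Leaving out any other brain library gave 0 calls and medians from -0.91 to -0.73.

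**Figure D2:**
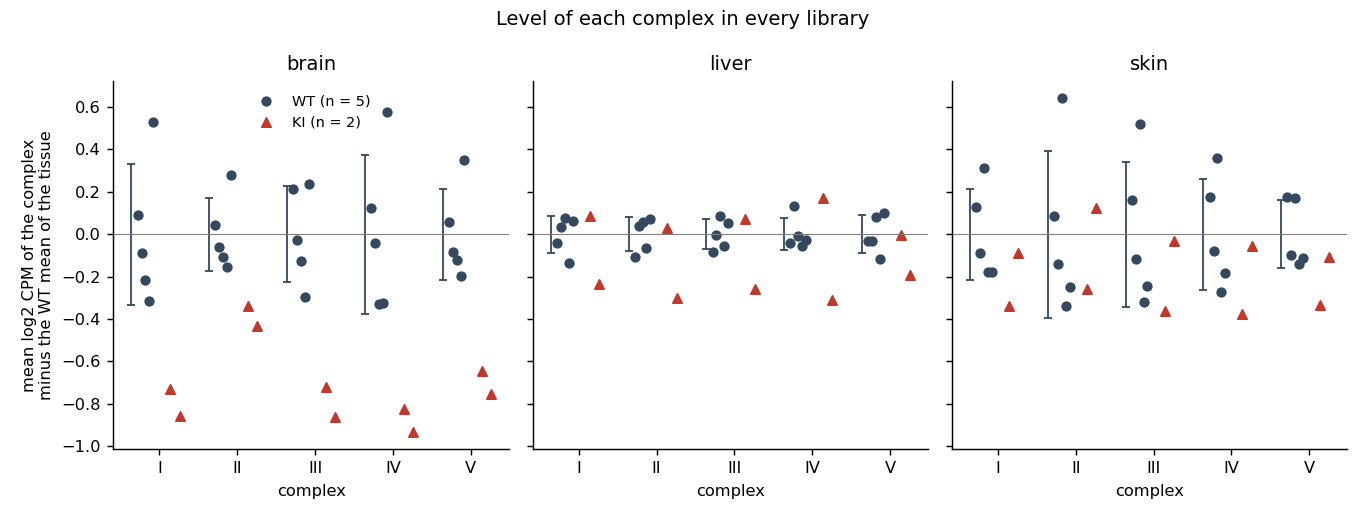
Mean log2 CPM of the genes of each complex in every library, minus the WT mean of the tissue (circles WT, n = 5, triangles KI, n = 2, whiskers 1 SD of WT). In the brain both KI libraries lie below all WT libraries in all 5 complexes, with KI minus WT from -0.88 in complex IV to -0.39 in complex II, while KI and WT overlap in the skin.

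Apart from the scarce Cox7b2, the 2 lowest fold changes were those of Cox6c and Uqcrb. Cox6c, an accessory subunit of complex IV singled out after its values were seen, was at 65.9 and 53.4 CPM in the KI brains and at 188, 155, 125, 112 and 198 CPM in WT 1 to WT 5. Both KI brains lay below the lowest WT brain, with a log2 fold change of -1.38 (standard error 0.256, edgeR adjusted p = 0.255). Uqcrb, a small subunit near the quinone site of complex III, was at 34.6 and 27.5 CPM in the KI brains and at 107, 85.8, 66.8, 59.6 and 75.7 CPM in the WT brains. The log2 fold change of Uqcrb was -1.35 (standard error 0.250, edgeR adjusted p = 0.255), and 51.3% of its 64-base stretches lie also elsewhere.

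In complex I, Ndufa5 was at 77.1 and 69.5 CPM in the KI brains and at 211, 173, 146, 135 and 222 CPM in the WT brains. The KI values lay clear of the WT range, with a log2 fold change of -1.27 (standard error 0.226, edgeR adjusted p = 0.255). In complex V, Atp5j2, the f subunit of the membrane part, was at 90.5 and 75.3 CPM against 224, 186, 158, 149 and 276 CPM. For Atp5j2 this gave -1.26 on the log2 scale (standard error 0.262, edgeR adjusted p = 0.255). Ndufs4 was at 121 and 105 CPM against 272, 232, 192, 177 and 296 CPM. On the log2 scale this was -1.05 (standard error 0.225, edgeR adjusted p = 0.258).

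The 5 fold changes closest to 0 were those of Atp5a1, Sdha, Uqcrc1, Atp5b and Ndufa10, an accessory subunit of complex I (-0.14). Atp5a1 and Atp5b, the alpha and beta subunits of the ATP synthase head, had log2 fold changes of -0.07 and -0.13. The KI values of Atp5a1, 1032 and 966 CPM, lay within the WT range of 961 to 1133 CPM. Sdha was at 285 and 258 CPM in the KI brains and at 269 to 295 CPM in the WT brains, which is -0.07 on the log2 scale (standard error 0.107, edgeR adjusted p = 0.859). Uqcrc1, a core protein of complex III, was at 229 and 220 CPM against 211 to 227 CPM in WT 1 to WT 4 and 321 CPM in WT 5. Ndufs1, the largest iron-sulfur subunit of complex I, and Ndufv1, which binds NADH and flavin, had log2 fold changes of -0.17 and -0.35. Other core subunits lay lower, with -0.46 for Uqcrfs1, the iron-sulfur protein of complex III, and -0.77 for Cox5a of complex IV.

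**Figure D3:**
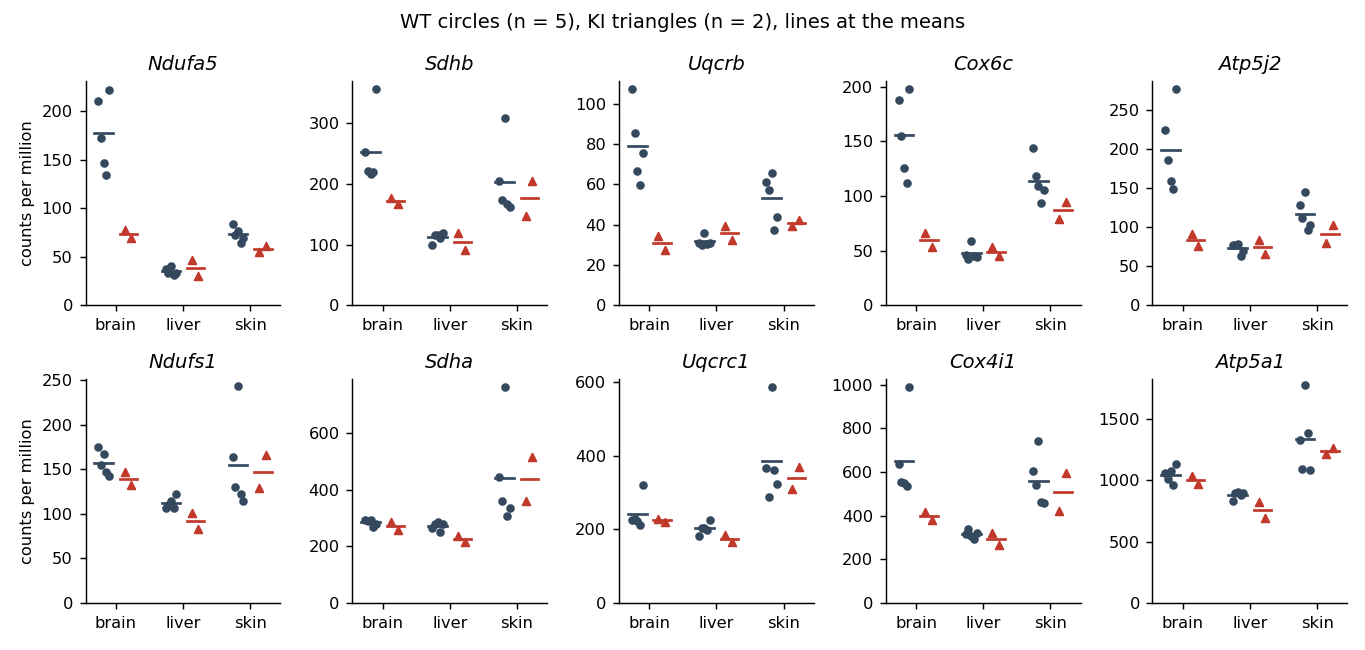
CPM of 10 subunit genes in every library of the 3 tissues, 2 genes of each complex in a column (circles WT, n = 5, triangles KI, n = 2, lines at the means, axes from 0). In the brain Ndufa5, Uqcrb, Cox6c and Atp5j2 lie far below WT in both KI mice, whereas Ndufs1, Sdha, Uqcrc1 and Atp5a1 overlap with WT.

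In complex II the small membrane subunits and Sdhb lay lower than Sdha. Sdhb was at 177 and 167 CPM in the KI brains and at 216 to 357 CPM in the WT brains (log2 fold change -0.56, standard error 0.216, edgeR adjusted p = 0.425), Sdhd had -0.53 and Sdhc -0.44. In complex IV the main form Cox4i1 was at 418 and 382 CPM against 535 to 636 CPM in WT 1 to WT 4 and 992 CPM in WT 5. For Cox4i1 this gave -0.71 on the log2 scale (standard error 0.260, edgeR adjusted p = 0.400) with WT 5 and -0.49 (adjusted p = 0.0376) without it. Cox7b2 had the lowest value, -2.75, on 0 and 2 counts in the KI brains and 2 to 11 in the WT brains, too few for a fold change to be read.

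The transcript length of a gene went with its fold change in the brain, for subunit genes and for all others. The median longest coding transcript was 875 bases for the tested subunit genes and 3016 bases for all genes tested. Genes outside the rule with transcripts under 600 bases had a median log2 fold change of -0.81 (140 genes), against -1.13 for the 20 subunit genes of that length. In the next classes, with upper edges of 800, 1200, 2000 and 4000 bases, the medians of other genes were -0.78, -0.54, -0.26 and -0.02 and those of the subunit genes -0.94, -0.79, -0.52 and -0.22. The subunit median was the lower in each of these 5 length classes. At 4000 bases and over it was -0.93, from Atp5g1 and Ndufb2 only, whose coding parts are 411 and 318 bases, against 0.18.

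**Figure D4:**
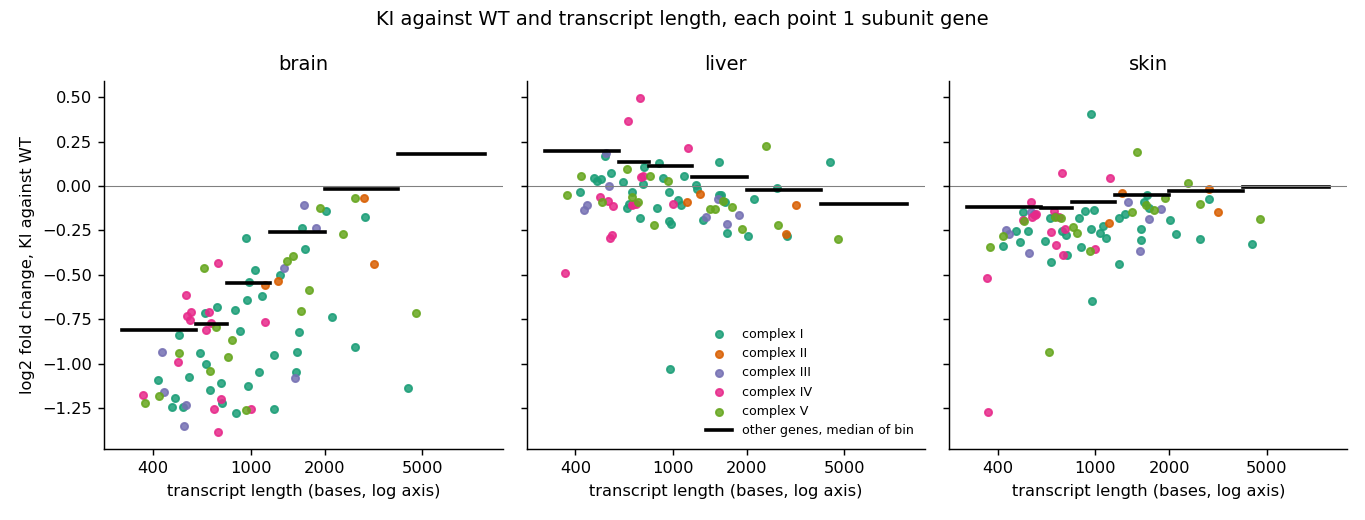
Log2 fold change of KI against WT and length of the longest coding transcript (log axis), each point 1 subunit gene coloured by complex, black lines at the median of genes outside the rule in 6 length classes. Cox7b2 is not drawn. In the brain both fall towards short transcripts and the subunit genes lie lower, with -1.13 against -0.81 under 600 bases, and in the liver the short genes outside the rule lie above 0.

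The same was seen library by library. The slope of log2 deviation from the gene mean on the doubling of transcript length was 0.152 and 0.183 in the KI brains and -0.415 (WT 5) to 0.0823 in the WT brains (exact permutation test, two-sided p = 0.190, smallest possible 0.0476). The share of aligned reads that matched more than 1 place was 17.1% and 17.998% in the KI brains and 20.5% to 23.97% in the WT brains (exact permutation p = 0.0476, the smallest possible). Astroglial markers (6 genes, none at 0) summed to 3336 and 3435 CPM in the KI brains and 3644 to 6674 CPM in the WT brains, but only 3 of the 6 genes were lower in KI by fold change, and the median log2 value was -0.0051. Neuronal markers (10 genes, none at 0) summed to 8805 and 9434 against 9418 to 9881 CPM, with 7 of 10 below 0 and a median of -0.05. Hepatocyte markers summed to 882 and 996 CPM in the KI brains and 36.6 to 2414 CPM in the WT brains. Keratinocyte markers summed to 57.9 and 56.4 against 66.6 to 119.9 CPM. WT 5 was the highest brain in both sums. Of the hepatocyte markers 4 of 6 tested lay below 0, and of the keratinocyte markers 6 of 7. Their part in the subunit result was not tested.

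A loess trend on transcript length, fitted in each library to genes outside the rule and used as an offset, brought the values closer to 0. After it the median of the 81 subunit genes in the brain was -0.33, 75 were below 0 (59.5% of all genes) and 35 were lower at an unadjusted p under 0.05 (6.85% of all genes). No gene was called by edgeR. With the same offset and without WT 5, an alternative added after the data had been seen, the median was -0.28 and 32 of 79 subunit genes were called lower, with 3.59% of all genes. The 32 were all among the 56 called without the offset.

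After the length offset the complexes lay closer together, with medians of -0.39 in complex I, -0.36 in V, -0.30 in III, -0.22 in IV and -0.21 in II. With the offset and without WT 5, the genes called lower included Cox7b (-0.95, adjusted p = 0.0796), Ndufs4 (-0.82, adjusted p = 0.0796), Ndufa5 (-0.80, adjusted p = 0.0796), Uqcrb (-0.80, adjusted p = 0.0796) and Atp5j2 (-0.77, adjusted p = 0.0796). The offset brought Cox4i1 to -0.08 and Cox8a, the ubiquitous form of a small complex IV subunit, from -0.61 to 0.04 with all mice.

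In the liver the subunit genes differed little between KI and WT. The median log2 fold change was -0.08 and 54 of 80 lay below 0, against -0.02 and 53.2% for all genes. No subunit gene was called by edgeR, while 582 genes were called higher and 251 lower of 14966 (3.89% and 1.68%). At an unadjusted p under 0.05, 4 subunit genes were lower and 0 higher (8.41% and 9.49% of all genes), and DESeq2 called 2, Ndufa10 and Sdha (4.28% of all genes). KI lay below WT in 6 subunit genes, against 11.3% of all genes.

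The 4 genes with an unadjusted p under 0.05 in the liver were Ndufa10, Sdha, Ndufs1 and Ndufv1, 3 of which encode core subunits and whose transcripts have 1661 to 2918 bases. Sdha was at 237 and 215 CPM in the KI livers and at 265, 279, 285, 251 and 278 CPM in WT 1 to WT 5, below all WT livers, with a log2 fold change of -0.27 (standard error 0.0940, edgeR adjusted p = 0.178). Ndufa10, an accessory subunit of complex I, was at 76.4 and 72.0 CPM against 86.7 to 95.2 CPM, lower by a log2 value of -0.28 (standard error 0.0848, edgeR adjusted p = 0.120). Ndufs1 and Ndufv1 had -0.28 and -0.27, with KI below WT in both. The KI livers differed from each other: without KI 1 the median of the subunit genes was -0.24, without KI 2 it was 0.09, and without WT 3 and without WT 5 it was -0.04 and -0.05. Ndufa4l2 was at 63.9 CPM in KI 1, 28.1 in KI 2 and 46.5 to 58.5 in the WT livers, and was the only member called without KI 1 (-0.89, adjusted p = 0.0641, with 0.228% of all genes lower). Ndufa10 was called without WT 4 (with 3.41% of all genes lower).

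Short genes outside the rule lay above 0 in the liver, with a median of 0.20 under 600 bases and -0.10 at 4000 bases and over. The subunit genes under 600 bases had a median of -0.05. With the length offset, the subunit median was -0.21, 74 of 80 were below 0 and 24 were lower at an unadjusted p under 0.05, against 54.0% and 7.36% of all genes. Ndufa10 (-0.33, adjusted p = 0.0932) and Uqcr10 (-0.35, adjusted p = 0.0933), a small subunit of complex III, were then called by edgeR, with 1.19% of all genes, and 2 were called with the replicate block and the offset (2.74%). Leukocyte markers summed to 4742 and 6094 CPM in the KI livers and 3018 to 3898 CPM in the WT livers, and erythroid markers to 2614 and 2684 against 2955 to 4416 CPM. Hepatocyte markers summed to 179846 and 184528 CPM against 183871 to 207650 CPM. Their part in the subunit values was not tested.

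In the skin 76 of 81 subunit genes lay below 0 (56.7% of all genes), with a median of -0.19 against -0.03 for all genes. No subunit gene was called by edgeR or by DESeq2. Of all 16163 genes edgeR called 4 (0.0247%), all higher, and DESeq2 called 0.0681% lower. At an unadjusted p under 0.05, 3 subunit genes were lower and 0 higher, against 1.68% and 2.89% of all genes. They were Ndufs4 (-0.30, edgeR adjusted p = 0.944), Ndufa5 (-0.34, edgeR adjusted p = 0.999) and Ndufb7 (-0.31, edgeR adjusted p = 0.999). Ndufs4 was at 87.1 and 94.7 CPM in the KI skins and at 117, 107, 122, 110 and 106 CPM in the WT skins. KI lay below WT in 7 subunit genes, or 8.64%, beside 4.84% of all genes. The median was -0.04 without KI 1, -0.37 without KI 2 and -0.12 without WT 3. With the length offset it was -0.15, 73 of 81 lay below 0 (52.6% of all genes) and 0 subunit genes were lower at an unadjusted p under 0.05 (1.16% of all genes).

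WT 3 was the highest WT skin in Sdha, Uqcrc1, Cox7a1 and Cox8b. Sdha was at 766 CPM in WT 3 and 307 to 447 CPM in the other WT skins, with 360 and 517 CPM in the KI skins. Cox7a1 was at 63.96 CPM in WT 3 and 8.84 to 15.9 in the others. The KI skins, at 6.65 and 12.4 CPM, overlapped with those others (log2 fold change -1.27, standard error 0.824, edgeR adjusted p = 0.999). Brown adipocyte markers summed to 4830 CPM in WT 3, 789 to 3471 in the other WT skins and 1717 and 3933 in the KI skins. Keratinocyte markers summed to 14242 CPM in KI 1 and 953 CPM in KI 2, and to 1605 to 17234 CPM in the WT skins. Ndufa4l2 was the only member above 0 by over 0.20, at 234 and 149 CPM against 104 to 178 CPM (log2 fold change 0.41, standard error 0.226, edgeR adjusted p = 0.999).

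The KI effects of the tissues were compared directly by an interaction term in a fit of all 21 libraries. Between brain and liver, 17 of 82 subunit genes were called lower in the brain and 0 higher, with 1.77% and 1.05% of all 18062 genes. At an unadjusted p under 0.05, 40 were lower (7.25% of all genes). The 17 called genes, of which some were named only after their values were seen, were 9 genes of complex I (Ndufa1, Ndufa2, Ndufa3, Ndufa5, Ndufa6, Ndufb2, Ndufb3, Ndufc1 and Ndufs4), Uqcrb and Uqcrh of complex III, Cox6c, Cox7a2 and Cox7a2l of complex IV and Atp5j, Atp5j2 and Atp5k of complex V. No gene of complex II was among them. The largest difference was that of Uqcrb, -1.44 (standard error 0.298, edgeR adjusted p = 0.0318), followed by Cox6c at -1.33 (0.285, edgeR adjusted p = 0.0335).

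Without KI 1 and without KI 2 no subunit gene was called by edgeR, with 0.0109% and 0% of all genes, although 19 and 27 were lower at an unadjusted p under 0.05 (4.02% and 3.37%). DESeq2 called 29 with all mice (4.16%). Without WT 1 the count was 6 (0.456% of all genes), without WT 2 it was 9 (0.829%), and without WT 5 it was 21 (2.63%). With the mouse as a block the count was 13 (1.6%). Libraries with the same genotype and number in different tissues were taken as the same mouse, which the labels do not state. With the length offset in each tissue 2 remained of the 17, Ndufb2 (-1.52, adjusted p = 0.0821) and Ndufs4 (-0.92, adjusted p = 0.0592), with 0.536% of all genes. Ndufb2 is one of the genes whose long transcript has a short coding part.

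Between brain and skin, edgeR called 0 subunit genes and 0 genes in all, with 35 lower at an unadjusted p under 0.05 (4.12% of all genes) and 1 called by DESeq2 (0.205%). The median difference was -0.54, and without KI 2 it was -0.33 with 2 lower at an unadjusted p under 0.05 (0.847% of all genes). With the length offset it was -0.31, and 15 were lower at an unadjusted p under 0.05 (4.25% of all genes). Between liver and skin, 0 subunit genes were called by edgeR or DESeq2 and 0 had an unadjusted p under 0.05 (3.11% of all genes lower), with a median difference of 0.10. That median turned to -0.04 with the length offset and was -0.22 without KI 1, 0.41 without KI 2, 0.05 without WT 1, 0.00 without WT 3 and 0.16 without WT 4 and without WT 5. Of all genes, edgeR called 0.0332% lower and 0.0664% higher. The tissues shared the 7 mice but not their libraries.

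Other gene groups of the mitochondrion and other groups with short transcripts were measured beside the subunit genes. In the brain the 6 subunit genes outside the rule, such as Cyc1 and Usmg5, had a median of -0.99 and all lay below 0. Assembly factors had -0.32 (27 of 30 below 0), tricarboxylic acid cycle genes -0.26 (11 of 16) and transcriptional regulators of mitochondrial genes, such as Nrf1 and Gabpa, -0.02 (9 of 16). Mitochondrial ribosomal proteins had -0.63 (76 of 77 below 0), cytosolic ribosomal proteins -0.85 (75 of 75) and proteasome subunits -0.51 (32 of 38). No gene of these lists was called by edgeR, and 4, 11, 7, 1, 37, 39 and 21 of them in this order had an unadjusted p under 0.05 and lay below 0. Over all genes tested, 7.81% did so and 52.8% lay below 0, and the 1 and 9 of 16 regulators were near those shares.

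**Figure D5:**
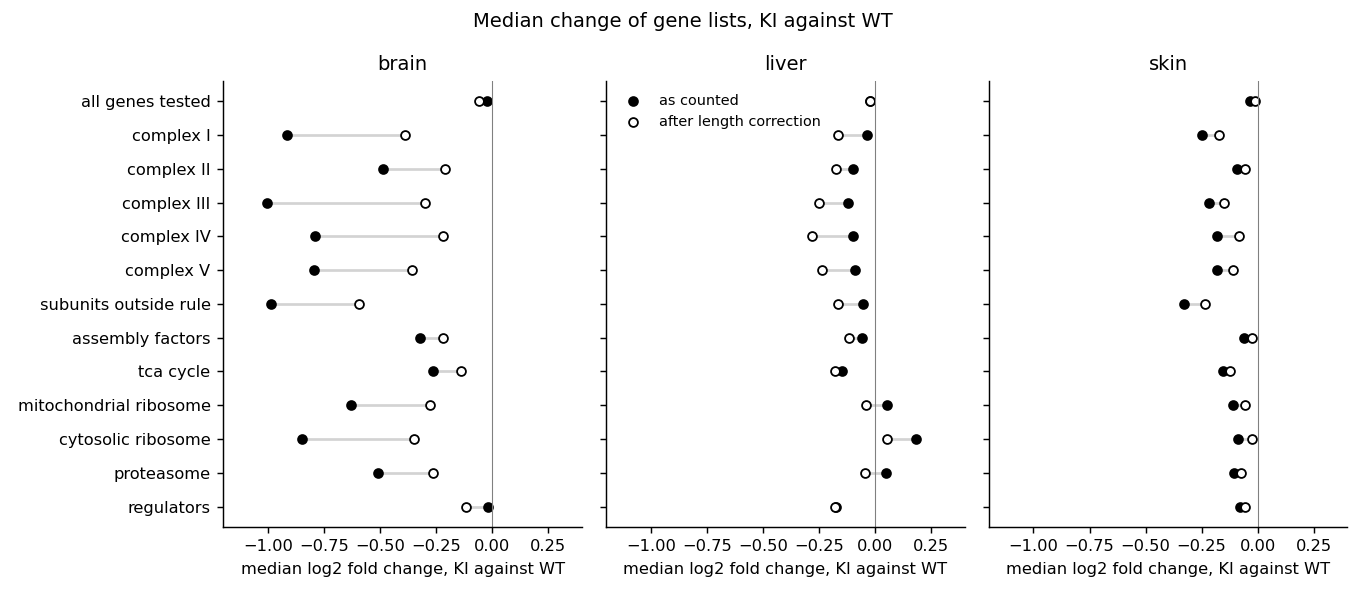
Median log2 fold change of KI against WT for the subunit genes by complex and for other gene lists, as counted (filled) and after the length offset (open). In the brain the medians of complexes I, III, IV and V, of the subunits outside the rule (-0.99) and of cytosolic ribosomal proteins (-0.85) lie lowest. With the offset those of the 4 complexes lie between -0.39 and -0.22 and that of the subunits outside the rule at -0.60, and in the liver the offset moves the complexes down, to -0.28 in complex IV.

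After the length offset the median of the cytosolic ribosomal proteins in the brain was -0.35, that of the mitochondrial ribosomal proteins -0.28 and that of the proteasome -0.26, beside -0.33 for the subunit genes. In the liver the cytosolic ribosomal proteins had a median of 0.18 and the subunit genes -0.08, and after the offset 0.05 and -0.21. In the skin the values were -0.09 and -0.19, and -0.03 and -0.15 after the offset. The differences between lists were not tested.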

How the data were processed

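RNA of brain, liver and skin from 7 newborn mice was sequenced by the authors as paired-end reads from TruSeq RNA Library Prep Kit v2 libraries, which do not mark strand, with adapters trimmed, and mapped by TopHat2 on mm9. The deposited files hold raw read counts per gene symbol, which the submitters' notes tie to HTSeq; its settings are not given in the sources used here. The 21 libraries held 26549326 to 38388133 counts on genes. Lengths are those of the longest coding transcript in the GENCODE annotation of NCBIM37, the assembly of mm9.

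The members and lists were chosen with earlier results of these data known. Named were members called between KI and WT, the 5 with the smallest p per tissue, the highest and lowest fold change and the highest WT level per complex and tissue, core subunits, paralog sets, and the 5 largest WT tissue differences each way. Atp5j, Atp5k, Atp5l, Cox5b, Cox6c, Ndufc1, Ndufc2 and Ndufs5 were named after their values were seen. Counts were filtered and scaled by the TMM method in edgeR 4.0.16 (R 4.3.3, limma 3.58.1), and KI was compared with WT in each tissue by the quasi-likelihood test over all genes, called at a Benjamini-Hochberg adjusted p under 0.1. WT tissue contrasts also needed 2-fold. All 21 libraries entered the test of KI effects between tissues. Log2 CPM had a prior count of 2. The length offset was a loess trend (span 0.3, degree 1) per library. DESeq2 1.42.0, DESeq2 size factors, no filter, a GC correction, a replicate block and leaving out each mouse were alternatives. With 1 KI library left, it was taken to vary like the other group. Tests were checked on simulated counts. These were drawn gene by gene, without the length trend or other shifts shared by many genes, so the rates may not hold for the real libraries. There edgeR recovered 40% of genes changed 2-fold in the brain comparison, 93% in the liver and 44% in the skin. It recovered 89%, 99% and 90% of genes changed 4-fold, with 10, 16 and 13 false calls. DESeq2 recovered 63%, 97% and 79% of genes changed 2-fold and made more false calls, 80, 62 and 94. Other values came from Python 3.11.15 (numpy 2.4.6, pandas 2.3.3, scipy 1.17.1, matplotlib 3.10.9). Mice are the replicates, and p-values measure only the spread between these mice.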

Additional observations from a re-analysis of the deposited data

Results flagged for a closer look

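Among 179 sets of values from the 5 WT mice of a tissue, 22 had a library that stood apart by Dixon's criterion. Chance alone meets it in about 1 in 20 independent sets. These sets share the same libraries, so their count cannot be set against that share. In the brain all 15 were WT 5. Its length slope was -0.415, against -0.0485 to 0.0823 in the other WT brains. It was the highest WT brain for Atp5e (610.3 CPM), Atp5g1 (25.5), Atp5sl (64.3), Cox4i1 (992), Cox4i2 (6.74), Cox6a1 (645), Cox6b1 (391), Cox7a2l (180.0), Ndufa11 (167), Ndufb4 (2.31), Ndufb7 (253), Ndufv1 (265), Sdhb (357) and Uqcrc1 (321 CPM). In the liver WT 2 was highest in complex IV, with a mean log2 deviation from the WT mean of 0.13, WT 3 was highest for Cox6c (59.0 CPM) and Uqcrb (35.96 CPM), and WT 4 was lowest for Ndufb7 (49.98 CPM). In the skin WT 3 was highest for Cox7a1 (63.96 CPM), Cox8b (80.2 CPM) and Uqcrc1 (588 CPM).

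The KI effect differed between brain and liver in 17 genes by the interaction term (edgeR, adjusted p under 0.1). In complex I the log2 difference of the effects, brain minus liver, was -1.31 for Ndufa2, -1.30 for Ndufa5, -1.23 for Ndufb3, -1.19 for Ndufa3, -1.17 for Ndufb2, -1.13 for Ndufc1, -1.08 for Ndufs4, -1.04 for Ndufa6 and -0.96 for Ndufa1. It was -1.44 for Uqcrb and -1.13 for Uqcrh in complex III, and -1.33 for Cox6c, -1.15 for Cox7a2 and -0.88 for Cox7a2l in complex IV. In complex V it was -1.18 for Atp5j2, -1.06 for Atp5k and -0.92 for Atp5j.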

How the results depend on the processing

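In the brain, where edgeR called 0 subunit genes, 41 were called lower by DESeq2, 39 by edgeR in a fit of all 21 libraries, and 0 to 56 when 1 mouse was left out, the 56 without WT 5. The median log2 fold change of -0.81 was -0.33 with the length correction and -0.28 with the length correction and without WT 5, which together gave 32 calls and were chosen after seeing the data. In the liver DESeq2 called 2 and the length correction 2, with a median of -0.21 in place of -0.08. Leaving out 1 mouse gave 0 to 1 calls and medians from -0.24 to 0.094 in the liver. In the skin no alternative gave a call. By adjusted p alone, without the 2-fold limit, 52, 53 and 25 subunit genes passed for brain against liver, brain against skin and liver against skin in WT. The 17 genes whose KI effect differed between brain and liver were 29 by DESeq2 (4.16% of all genes) and 2 with the length correction (0.536%). These calls depended on both KI mice, as given above. Without WT 1, WT 2 and WT 5 the counts were 6, 9 and 21 (0.456%, 0.829% and 2.63%). Without WT 3 and WT 4 they were 19 and 22, for which the share of all genes was not computed. DESeq2 called 1 for brain against skin. With the longest transcript of any kind, summed levels in RPKM were 2646 for complex V in the brain, 3219, 1361 and 2918 for complexes I, III and V in the liver, and 2681.8 for complex V in the skin.

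With the replicate number as a block, 61 subunit genes were called lower in the brain (8.47% of all genes), and 29 with the length correction as well, with a median of -0.34. The block with the length correction gave 2 calls in the liver with a median of -0.20, and in the skin a median of -0.04 with 48 of 81 below 0, against -0.19 and 76 of 81. The labels do not say whether a shared number means more than a label. Deviations of KI and WT mice with the same number had correlations of 0.02 and -0.10 in the brain and -0.03 and -0.09 in the liver. In the skin they were 0.20 and 0.04. These values cannot decide whether the numbers pair mice, since the deviations of KI 1 and KI 2 from their own mean mirror each other. With the mouse as a block, WT tissue contrasts gave the same counts of calls. Of 53 named genes in the brain, 9 changed sign under at least 1 alternative, as did 36 of 52 in the liver and 23 of 53 in the skin, none while called. Values of scarce genes such as Ndufb4, Atp5g2 and Cox7b2 are uncertain, since their counts in the brain were 58 or fewer in every library. The parts of depth and of reads set aside as matching more than 1 place were not tested. Cox6a2 was scarce in the brain too, at 0.141% of the summed level of Cox6a1 and Cox6a2 in WT brains.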
